A study of Homo sapiens with 6 samples.

Results

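The spliceosome and its partners were read here through 58 probe sets of 56 genes in A549, a human lung adenocarcinoma cell line. The members were the probe sets that carry a single gene symbol beginning with HNRNP, SRSF, SF3A, SF3B, SNRP, PRPF, U2AF or LSM, 58 of the 8793 probe sets on each array. Cultures for 3 arrays, cisplatin 1 to 3, received cisplatin, which crosslinks DNA, at 50 µM for 1 hour, and cultures for another 3, control 1 to 3, received medium without it. All were then left for 10 hours without drug, and the 3 samples of each group came from separate experiments according to the series' design text. The arrays hold this 1 line only, and fewer cells and less RNA per cell cannot be told apart in total RNA. The median intensity ran from 57.2 to 67.2 over the 6 arrays. Cisplatin 2 and control 1 stood apart from the rest, with scores of 17.1 and 14.4 on the first principal component of all tested probe sets (39.9% of the variance), where the other arrays lay between -12.4 and -1.69.

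The spliceosome removes introns from pre-mRNA. Its particles, the snRNPs, each pair a small nuclear RNA with a ring of Sm or Sm-like (LSM) proteins and with proteins of their own, and SR proteins and hnRNPs bind the transcript and steer which splice sites are used. hnRNPs also package nascent transcripts, and many SR protein and hnRNP genes control their own mRNA by splicing.

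Whether transcripts of the splicing machinery differed after a short exposure to cisplatin was asked by setting the 3 cisplatin arrays against the 3 control arrays. All 58 member probe sets passed the filter on dim signal, and 0 rose and 0 fell in limma with Benjamini-Hochberg adjustment over all 6559 tested probe sets at 0.05. Over all tested probe sets 0.290% passed, 0.213% higher and 0.0762% lower after cisplatin. At an unadjusted p under 0.05 there were 2 members, SRSF6 and SNRPA (3.45%, against 5.03% of all tested probe sets), and an ordinary test per probe set gave 1 such member and 0 after adjustment. Adjusted p values of the members ran from 0.869 to 0.999. The same arrays held a response to the drug: CDKN1A, the cyclin-dependent kinase inhibitor induced by DNA damage, had intensities of 1467, 1370.3 and 1429 on cisplatin 1 to 3, against 249, 281 and 241 on control 1 to 3, with a log2 fold of 2.42 (limma adjusted p = 4.74e-06).

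The 95% interval of each fold says which sizes of change the 6 arrays leave possible. Folds are on the scale of log2(intensity + 11.8), and intervals are for each probe set singly. All 58 members had an interval within 2-fold in either direction, against 97.4% of all tested probe sets. For 51 members (87.9%) the interval lay within 1.5-fold, against 66.5%. Among the 1926 tested probe sets at or above the members' lower quartile of mean intensity, a subset taken after the values were seen, 90.2% lay within 1.5-fold. This subset leaves out the dimmest members, which the member counts include. The log2 folds of the members ran from -0.29 to 0.27 with a median of -0.022. The median was 0.040 over all tested probe sets and 0.012 over these 1926. By sign alone 31 members (53.4%) lay below 0, against 39.5% of all tested probe sets and 45.2% of these 1926. Centring each array on its median moved the median fold of all probe sets by -0.060. With it 45 members lay below 0, against 55.4% of all tested probe sets. With quantile normalization 37 did, against 50.2%. The share among these 1926 was not computed for either setting. The signs of single families below are for arrays as deposited, and with centring the medians of all 7 families were negative. With quantile normalization that of LSM genes was negative too, at -0.036.

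**Figure D1:**
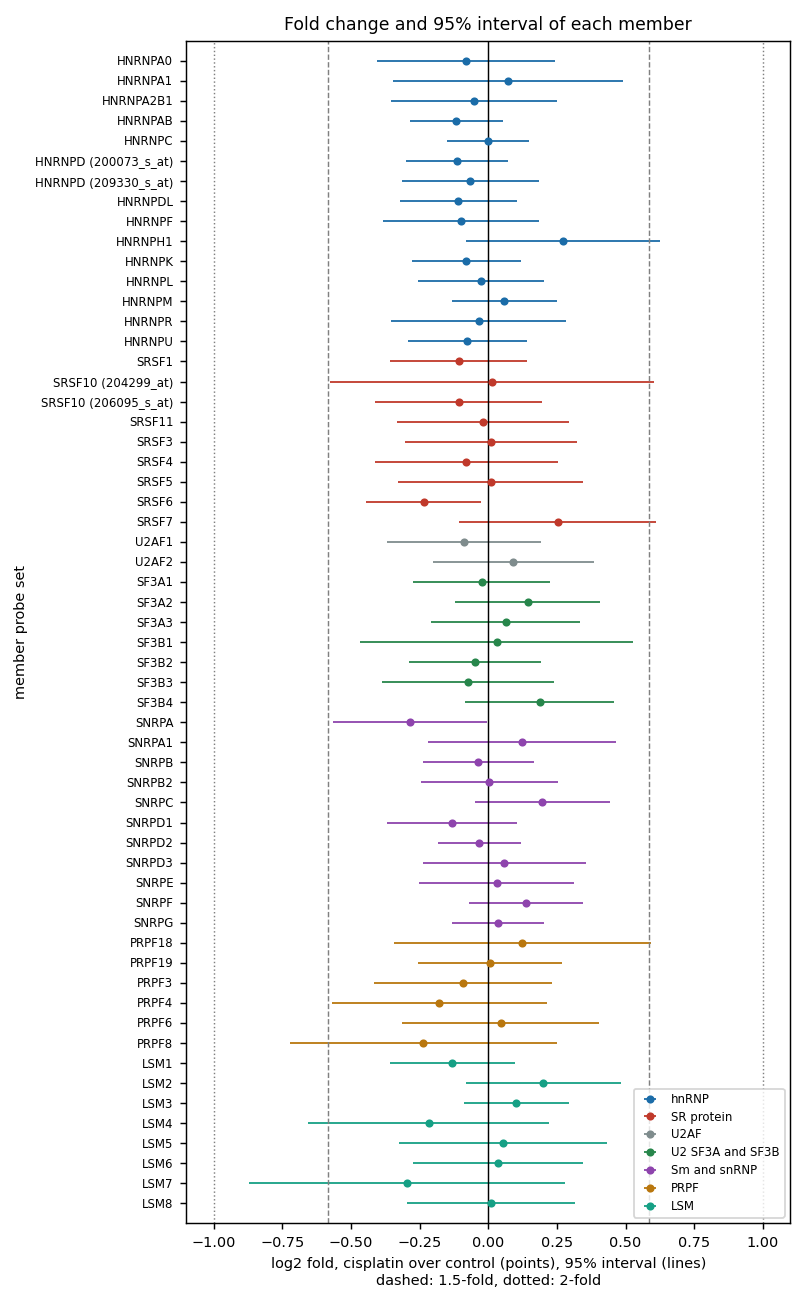
Log2 fold of cisplatin over control (points, horizontal axis) with its 95% interval (lines) for the 58 member probe sets, grouped and coloured by family, with dashed lines at 1.5-fold and dotted lines at 2-fold. Every interval lies inside the 2-fold lines, 51 lie inside the 1.5-fold lines, and those of SRSF6 and SNRPA do not reach 0.

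The promoters of the members held a feature that their selection did not use, and the sequences below show it in the named members that carry it. The RefSeq promoter table of GRCh38.p14, with 250 bases before and 50 after each gene start, held 50 of the 56 member genes. The motif CCGGAAG, of the type that ETS family transcription factors bind, searched on both strands (CTTCCGG on the other), was found in 21 of these 50 promoters (42.0%). It was found in 13.4% of the promoters of 6209 genes with a single-symbol probe set on the array and in 10.7% of all 27305 promoters of the table. By family it was in 7 of 10 promoters of Sm and snRNP genes and in 5 of 6 of SF3A and SF3B genes, against 2 of 13 of hnRNP genes and 2 of 8 of SR protein genes. The 250 bases before the start of the 4 named genes with a match there are given 5′ to 3′ with the motif in capitals (in SNRPC a match on each strand overlaps), followed by SRSF6, the member with the lowest unadjusted p, which has none.
SNRPC, chr6:34757255-34757504, plus strand: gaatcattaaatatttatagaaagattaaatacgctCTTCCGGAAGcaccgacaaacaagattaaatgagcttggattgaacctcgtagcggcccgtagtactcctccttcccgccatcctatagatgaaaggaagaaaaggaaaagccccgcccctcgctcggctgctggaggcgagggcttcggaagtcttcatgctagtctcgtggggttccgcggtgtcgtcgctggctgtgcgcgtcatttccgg
SF3B4, chr1:149927804-149928053, minus strand: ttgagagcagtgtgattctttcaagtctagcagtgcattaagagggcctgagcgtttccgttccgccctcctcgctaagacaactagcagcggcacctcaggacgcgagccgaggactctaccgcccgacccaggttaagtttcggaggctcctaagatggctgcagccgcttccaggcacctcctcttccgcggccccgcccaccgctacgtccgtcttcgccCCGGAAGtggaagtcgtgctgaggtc
SF3A2, chr19:2236574-2236823, plus strand: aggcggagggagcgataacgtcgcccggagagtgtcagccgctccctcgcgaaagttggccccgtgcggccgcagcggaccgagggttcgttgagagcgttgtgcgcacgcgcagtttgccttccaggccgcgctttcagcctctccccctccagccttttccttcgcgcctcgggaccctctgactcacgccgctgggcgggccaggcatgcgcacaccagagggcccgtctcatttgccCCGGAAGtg
U2AF2, chr19:55654785-55655034, plus strand: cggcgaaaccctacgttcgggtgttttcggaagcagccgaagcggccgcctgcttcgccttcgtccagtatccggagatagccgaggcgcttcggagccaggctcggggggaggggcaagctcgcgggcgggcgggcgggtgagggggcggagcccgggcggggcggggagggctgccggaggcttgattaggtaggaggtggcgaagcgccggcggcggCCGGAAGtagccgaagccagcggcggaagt
SRSF6, chr20:43457646-43457895, plus strand: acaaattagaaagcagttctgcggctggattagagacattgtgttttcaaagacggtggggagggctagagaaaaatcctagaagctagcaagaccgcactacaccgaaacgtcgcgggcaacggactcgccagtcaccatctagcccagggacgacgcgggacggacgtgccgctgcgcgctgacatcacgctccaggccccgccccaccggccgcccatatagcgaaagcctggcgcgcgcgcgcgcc
The letters TATAAA were searched on both strands at any place in the 300 bases. They were in 6 of the 50 member promoters (12.0%). The share was 9.71% for the genes on the array and 12.0% for all promoters of the table. The member promoters held a median of 28 CG dinucleotides in 300 bases, against 23 for the genes on the array and 14 for all promoters. A match is a description of the letters and not of a bound factor. The log2 fold after cisplatin had a median of 0.031 over the 21 genes with the ETS-type motif (-0.10 to 0.20) and of -0.048 over the 29 without it (-0.29 to 0.27). These folds are for arrays as deposited, the families differ in their share with the motif, and the difference was not tested.

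SR proteins bind exonic enhancers and carry a tail rich in serine and arginine. Of their 9 probe sets, for 8 genes, 0 passed, 4 had a higher and 5 a lower mean log2 intensity after cisplatin, and the median log2 fold was -0.020. With centring and with quantile normalization alike 1 was higher and 8 were lower. Of all tested probe sets 39.5% were lower as deposited, 55.4% with centring and 50.2% with quantile normalization. SRSF6, which acts in both constitutive and alternative splicing, had intensities of 649, 614 and 604 on cisplatin 1 to 3, against 704, 720.1 and 778 on control 1 to 3. All 3 cisplatin arrays were below all 3 control arrays, a separation that 11.0% of all tested probe sets showed. Its log2 fold was -0.23 (SE 0.093, 95% interval -0.44 to -0.025, limma adjusted p = 0.869).

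SRSF7, the SR protein with a zinc knuckle, went the other way in its means, 171 ± 22.5 after cisplatin and 143 ± 24.4 in control cells (mean ± SD, n = 3 each). Its groups overlapped, with 155 on cisplatin 2 and 166 on control 2, and its log2 fold was 0.25 (SE 0.16, 95% interval -0.11 to 0.61, limma adjusted p = 0.999). It was 0.15 without cisplatin 1, 0.13 without control 1 and 0.096 with the ACTB ratio, given with the array differences, as a covariate. SRSF10, which can act as a splicing repressor, was measured by a pair of probe sets. On the first, which had the widest interval of all members, the intensities were 226, 155 and 156 on cisplatin 1 to 3, against 109, 197 and 245 on control 1 to 3. Control 1 was the lowest and control 3 the highest array, so the controls spanned more than the whole range of the cisplatin arrays. The log2 fold was 0.013 with an interval of -0.58 to 0.60, and it ranged from -0.30 without control 1 to 0.24 without control 3. On the other probe set the means were 441 ± 37.2 after cisplatin and 479 ± 78.6 in control cells, with a log2 fold of -0.11 (interval -0.41 to 0.20), -0.22 without control 1 and 0.0083 without control 3. The remaining 5 SR genes, SRSF1, SRSF3, SRSF4, SRSF5 and SRSF11, had log2 folds from -0.11 to 0.011, and the groups of each overlapped.

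The hnRNPs coat nascent transcripts and often oppose SR proteins at splice sites. Of their 15 probe sets, for 14 genes, 0 passed, 0 had an unadjusted p under 0.05, and in 0 did the groups separate. Their log2 folds were below 0 for 12 probe sets (80%) and above 0 for 3. Below 0 were 39.5% of all tested probe sets and 45.2% of the 1926 at or above the members' lower quartile of mean intensity. The median log2 fold of the hnRNPs was -0.065 (-0.12 with centring and -0.082 with quantile normalization). HNRNPH1, which binds G-rich sequences, had the largest positive fold of all members. Its intensities were 596, 932 and 693 on cisplatin 1 to 3, against 546, 659 and 602 on control 1 to 3. Cisplatin 2 lay above the other 5 arrays and cisplatin 1 within the range of the controls, and the log2 fold was 0.27 (SE 0.16, 95% interval -0.081 to 0.62, limma adjusted p = 0.999). Its log2 fold was 0.41 without cisplatin 1 and 0.096 without cisplatin 2.

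HNRNPAB, of the A/B type of hnRNPs, had intensities of 1789.8, 1778 and 1872 on cisplatin 1 to 3, against 2068, 2028 and 1810.2 on control 1 to 3. Control 3 lay among the cisplatin arrays, and the log2 fold was -0.12 (SE 0.076, 95% interval -0.29 to 0.054, limma adjusted p = 0.999), and -0.17 without control 3. HNRNPC, which binds uridine tracts, had the narrowest interval of all members. It averaged 2298 ± 112 after cisplatin and 2298 ± 60.3 in control cells, with a log2 fold of -0.0013 and an interval of -0.15 to 0.15, that is from 0.901 to 1.11 times the control level. HNRNPD, an AU-rich element binding hnRNP, was measured by a pair of probe sets that gave log2 folds of -0.11 and -0.065. The other 10 hnRNP genes, among them HNRNPA2B1, HNRNPK, HNRNPM and HNRNPU, had log2 folds from -0.11 for HNRNPDL to 0.071 for HNRNPA1. The HNRNPA1 probe set averaged 95.9 after cisplatin and 90.7 in control cells, with an interval of -0.35 to 0.49. A probe set that carries both HNRNPA1 and HNRNPA1P10, not a member, averaged 4630 after cisplatin and 4625 in control cells. Its log2 fold was 0.0043 (interval -0.15 to 0.16).

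**Figure D2:**
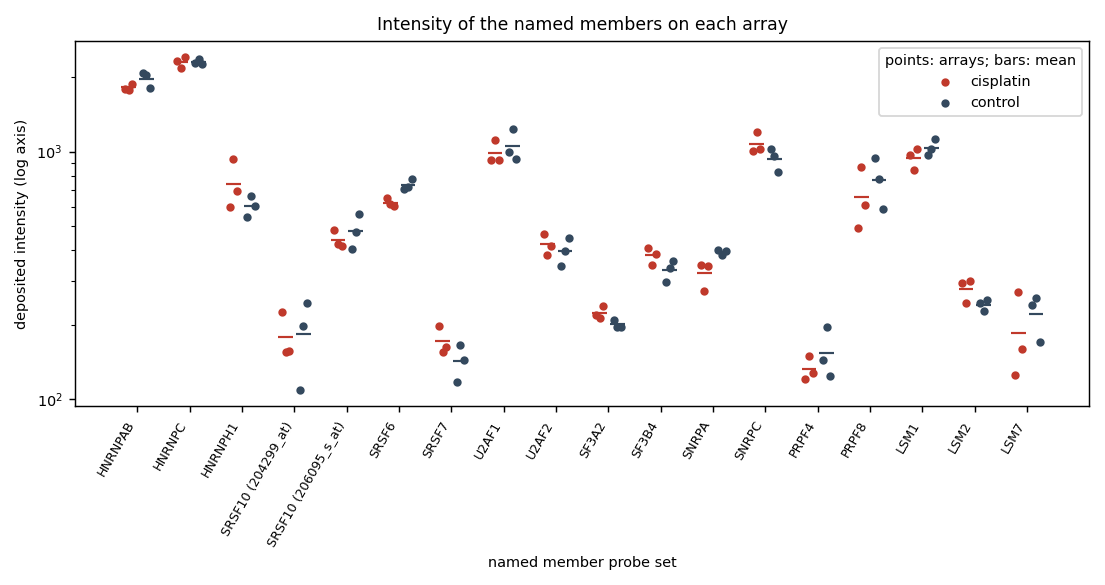
Deposited intensity (vertical axis, logarithmic) of the 18 named member probe sets on each array, with cisplatin arrays (red) left of control arrays (dark) and bars at the group means. The cisplatin points of SRSF6 and SNRPA lie below their control points, those of SF3A2 above, and the points of the other 15 probe sets overlap; the probe sets' levels are not comparable with each other.

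The 3′ end of an intron is recognised by the U2AF pair, of which U2AF1 reads the AG dinucleotide and U2AF2 the pyrimidine tract. U2AF1 averaged 985 ± 109.6 after cisplatin and 1052 ± 159.6 in control cells, with a log2 fold of -0.089 (SE 0.12, 95% interval -0.37 to 0.19, limma adjusted p = 0.999). U2AF2 averaged 422 ± 41.3 after cisplatin and 397 ± 52.5 in control cells, with a log2 fold of 0.091 (SE 0.13, 95% interval -0.20 to 0.38, limma adjusted p = 0.999). The groups overlapped for both genes. Without 1 array U2AF1 ranged from -0.18 without cisplatin 2 to 0.030 without control 2, and U2AF2 from -0.0037 without control 1 to 0.18 without control 3.

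SF3a and SF3b are the complexes of the U2 particle that hold it at the branch site. Of 7 genes, 0 passed, and the median log2 fold was 0.031. SF3A2, a subunit of SF3a, had intensities of 218, 212 and 239 on cisplatin 1 to 3, against 209, 197 and 196 on control 1 to 3. The 3 cisplatin arrays lay above the controls by a margin of 212 against 209 at the closest, and the log2 fold was 0.14 (SE 0.12, 95% interval -0.12 to 0.41, limma adjusted p = 0.999), 0.085 with arrays centred and 0.092 with quantile normalization. SF3B4, an SF3b subunit that contacts the pre-mRNA near the branch site, averaged 381 ± 29.7 after cisplatin and 333 ± 31.7 in control cells, with a log2 fold of 0.19 (SE 0.12, 95% interval -0.083 to 0.46, limma adjusted p = 0.999). Without control 1 it was 0.11, and with the ACTB ratio as a covariate 0.095. SF3B4 was measured by a probe set of the _x_at type, which can pick up related sequences. SF3B1, the subunit that encloses the branch site and here named after its values were seen, had 639, 541 and 454 on cisplatin 1 to 3, against 355, 639 and 646 on control 1 to 3. Apart from control 1, which was the lowest array, all its values lay between 454 and 646, and its log2 fold was 0.031 with an interval of -0.47 to 0.53. SF3A1, SF3A3, SF3B2 and SF3B3 had log2 folds from -0.074 to 0.064.

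Among the 11 Sm and snRNP genes 0 passed, 7 had a positive and 4 a negative log2 fold, and their median was 0.031. With centring 3 were positive and 8 negative, and with quantile normalization the count was again 7 and 4. Negative over all tested probe sets were 39.5% as deposited, 55.4% with centring and 50.2% with quantile normalization. The U1 particle marks the 5′ splice site, and 2 of its proteins, SNRPA and SNRPC, are members. SNRPA, which binds a stem-loop of U1 RNA, had intensities of 347, 273 and 346 on cisplatin 1 to 3, against 402, 381 and 395 on control 1 to 3. All 3 cisplatin arrays lay below all 3 controls, with cisplatin 2 the lowest, and the log2 fold was -0.29 (SE 0.12, 95% interval -0.57 to -0.0055, limma adjusted p = 0.967). Without cisplatin 2 its log2 fold was -0.18, and without control 1 as well it was -0.16. SNRPC, which stabilises U1 on the splice site, had 1005, 1196 and 1023 on cisplatin 1 to 3, against 1026, 955 and 829.7 on control 1 to 3. Control 1 exceeded cisplatin 1 and cisplatin 3, so the groups overlapped, and the log2 fold was 0.20 (SE 0.11, 95% interval -0.049 to 0.44, limma adjusted p = 0.999). Without control 3 its log2 fold was 0.11 and without cisplatin 2 it was 0.12. The U1 protein SNRNP70, whose symbol lies outside the member families, had 967, 967 and 1007 on cisplatin 1 to 3, against 925, 939 and 855 on control 1 to 3. Its groups did not overlap, and its log2 fold was 0.11 (SE 0.084, 95% interval -0.076 to 0.30, limma adjusted p = 0.999). SNRNP70 was named after its values were seen, and differences among the U1 proteins were not tested.

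The U2 particle's own proteins, SNRPA1 and SNRPB2, had log2 folds of 0.12 and 0.0042. The genes of the Sm ring, SNRPB, SNRPD1, SNRPD2, SNRPD3, SNRPE, SNRPF and SNRPG, had log2 folds from -0.13 for SNRPD1 to 0.14 for SNRPF. SNRPD2 averaged 3225 ± 169 after cisplatin and 3301 ± 192 in control cells, with an interval of -0.18 to 0.12. The intervals of all 11 genes lay within 1.5-fold.

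The pre-mRNA processing factors include PRPF8, the core protein around the catalytic centre. Of 6 such genes 0 passed, and the groups of each overlapped. PRPF8 had intensities of 489.8, 868 and 611 on cisplatin 1 to 3, against 942, 775 and 586 on control 1 to 3. The highest and the lowest array, control 1 and cisplatin 1, belonged to different groups, but cisplatin 2 was the second highest of the 6. Its log2 fold was -0.24 (SE 0.22, 95% interval -0.72 to 0.25, limma adjusted p = 0.999), -0.049 without cisplatin 1, -0.45 without cisplatin 2, -0.078 without control 1, -0.41 without control 3 and 0.025 with the ACTB ratio, the 3′ to 5′ signal given with the array differences, as a covariate. PRPF4, of the U4/U6 particle, averaged 133 ± 14.7 after cisplatin and 154 ± 36.8 in control cells, with a log2 fold of -0.18 (SE 0.17, 95% interval -0.57 to 0.21, limma adjusted p = 0.999). Without control 2 it was -0.0086, and without control 3 it was -0.31. PRPF3, PRPF6, PRPF18 and PRPF19 had log2 folds from -0.091 to 0.12.

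LSM proteins form a nuclear ring on U6 RNA, which contains LSM8, and a cytoplasmic ring for mRNA decay, which contains LSM1 in its place. All 8 genes from LSM1 to LSM8 were measured, 0 passed, and their median log2 fold was 0.023, with 5 positive and 3 negative. With centring and with quantile normalization alike 2 were positive and 6 negative. The negative share of all tested probe sets was 39.5% as deposited, 55.4% with centring and 50.2% with quantile normalization. LSM2, in both rings, had 295, 244 and 299 on cisplatin 1 to 3, against 244, 226 and 252 on control 1 to 3. Cisplatin 2 lay within the range of the controls, and the log2 fold was 0.20 (SE 0.13, 95% interval -0.082 to 0.48, limma adjusted p = 0.999). LSM1 averaged 946 ± 90.7 after cisplatin and 1036 ± 76.4 in control cells, with a log2 fold of -0.13 (SE 0.10, 95% interval -0.36 to 0.096, limma adjusted p = 0.999). Without cisplatin 2 it was -0.054, and without control 3 it was -0.075. LSM8 had a log2 fold of 0.0099 and an interval of -0.30 to 0.32.

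LSM7 had the largest negative fold of all members and the second widest interval. Its intensities were 125, 272 and 159 on cisplatin 1 to 3, against 239.9, 256 and 170.1 on control 1 to 3. Cisplatin 2 was the highest of all 6 arrays and cisplatin 1 the lowest, and the log2 fold of -0.29 had an interval of -0.87 to 0.28 (limma adjusted p = 0.999). The log2 fold rested on single arrays: it was -0.067 without cisplatin 1, -0.59 without cisplatin 2, -0.19 without control 2 and -0.47 without control 3, and -0.064 with the ACTB ratio as a covariate. LSM3 had 876, 897 and 902 on cisplatin 1 to 3, against 786, 854 and 851 on control 1 to 3, a separation with a log2 fold of 0.10. Together with SRSF6, SNRPA and SF3A2 it made 4 separated members (6.90%), against 11.0% of all tested probe sets, 2 on each side. LSM3 was named after its values were seen.

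Over the members the median SD within groups was 0.16 on the log2 scale and the median size of the log2 fold 0.080, against 0.19 and 0.11 over all tested probe sets. Among the 1926 tested probe sets at or above the members' lower quartile of mean intensity these medians were lower, 0.13 and 0.075. The sets are unlike, since the member medians include members dimmer than that cut, which the 1926 leave out. Control 1 was the lowest of the 6 arrays for 25 of the 58 members (43.1%), against 29.4% of all tested probe sets. For SR proteins it was the lowest in 7 of 9 probe sets and below both other controls in 8. Control 1 was also lower as a whole array, and the arrays were used as deposited. Its 75th percentile of log2 intensity was 7.66, against 7.82 and 7.73 on controls 2 and 3. The share of this offset in the members' differences was not tested. The difference of control 1 from the mean of controls 2 and 3 had a median of -0.37 on the log2 scale over SR proteins, -0.11 over all members and -0.042 over all tested probe sets. It was -0.93 for the SRSF10 probe set with the widest interval, -0.83 for SF3B1, -0.60 for PRPF18 and -0.52 for HNRNPA2B1, picked as the 4 lowest. LSM4, with 163 on control 1 against 112 and 100.0 on the other controls, lay 0.57 higher.

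**Figure D3:**
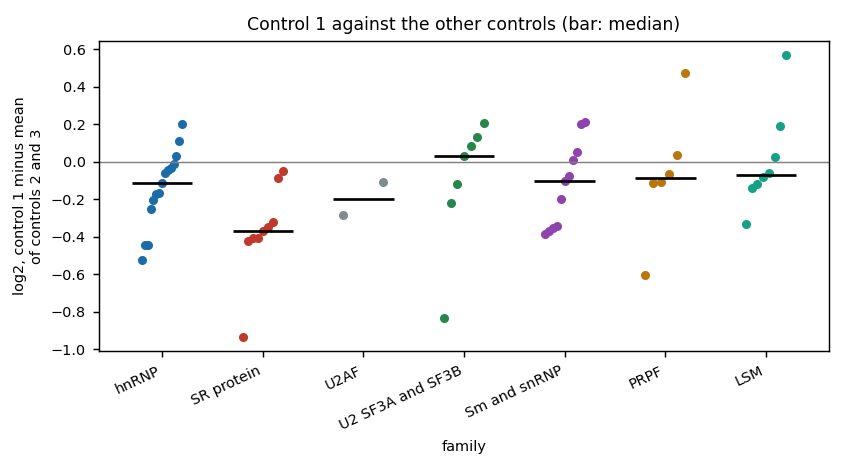
Log2 intensity of control 1 minus the mean of controls 2 and 3 (vertical axis) for each member probe set, by family, with bars at the family medians. The SR protein points all lie below 0, with a median of -0.37, while the medians of the other families lie between -0.20 and 0.030.

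A sign of RNA quality differed on the same arrays. For ACTB, the ratio of the 3′ to the 5′ control signal was 3.67, 2.67 and 2.94 on cisplatin 1 to 3, against 2.20, 2.98 and 2.95 on control 1 to 3. The same ratio for GAPDH was 2.36, 2.07 and 2.13 on cisplatin 1 to 3, against 1.84, 2.21 and 2.21 on control 1 to 3. For both genes control 1 had the lowest ratio, cisplatin 2 the second lowest and cisplatin 1 the highest. For 9 members, HNRNPA1, HNRNPR, PRPF18, SF3A3, SF3B4, SNRPE, SNRPF, SRSF7 and U2AF2, control 1 was the lowest array and cisplatin 1 the highest (15.5%, against 9.94% of all tested probe sets). For 3, PRPF8, LSM4 and SNRPB, the order was the reverse (5.17%, against 4.13%). With the log2 of the ACTB ratio as a covariate in limma 0 members passed and 7 had an unadjusted p under 0.05 (12.1%, against 12.7% of all tested probe sets). Without control 1 and cisplatin 2 together 0 passed and 5 had an unadjusted p under 0.05 (8.62%, against 7.14%).

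**Figure D4:**
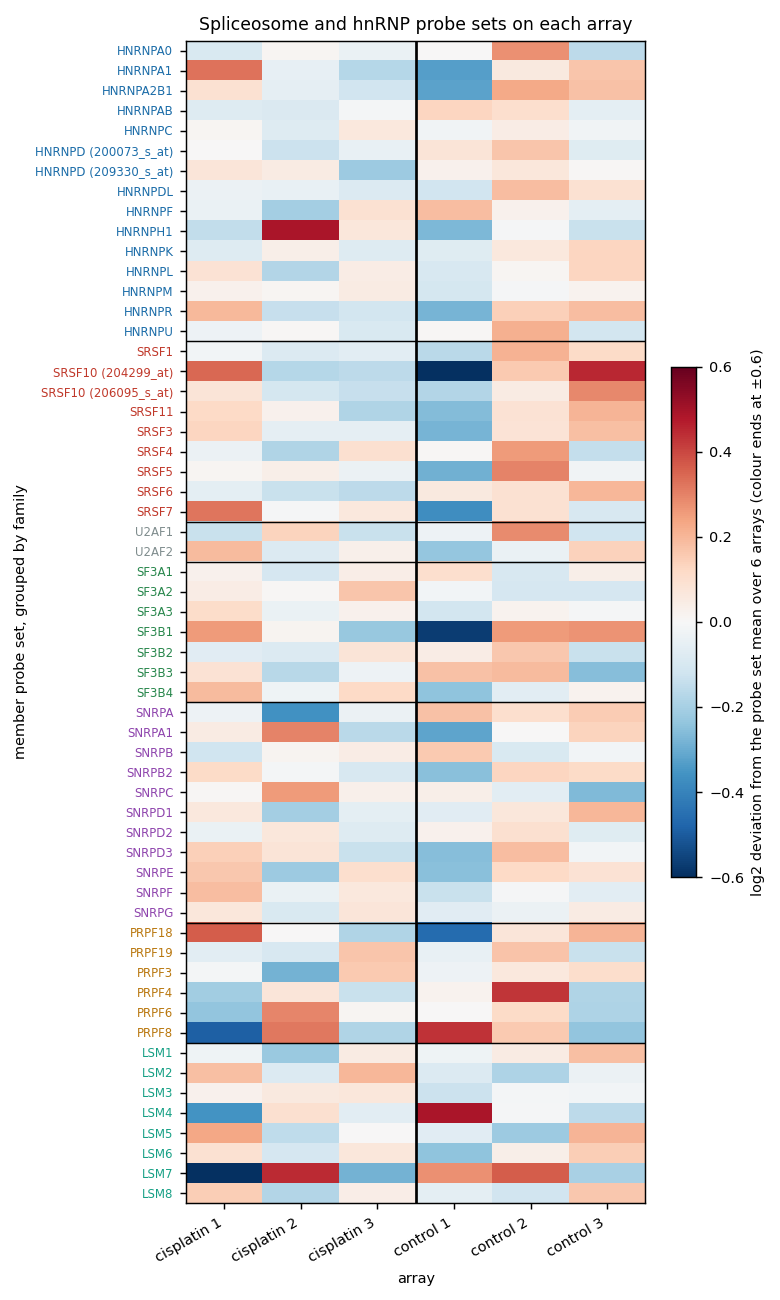
Log2 deviation of each member probe set (rows, grouped by family) from its own mean over the 6 arrays (columns, cisplatin left of control), red above and blue below the mean, with the colour ending at 0.6. The control 1 column is blue for most SR proteins and for SF3B1, and PRPF8, LSM4 and LSM7 have the opposite pattern there.

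Of 142 further genes of the spliceosome, its regulators, kinases and assembly factors, listed apart from the member families, 79 had a tested probe set with a single symbol, 82 probe sets in all. In limma 0 rose and 0 fell, 4 had an unadjusted p under 0.05 (4.88%, against 5.03% of all tested probe sets), and the median log2 fold was -0.043. By sign 54 lay below 0 (65.9%), against 39.5% of all tested probe sets on arrays as deposited. With centring 63 did, against 55.4%, and with quantile normalization 60, against 50.2%. These 4 were splicing regulators, of which there were 40 probe sets; the 25 of core spliceosome factors, 11 of snRNP assembly and exon junction factors and 6 of splicing kinases had 0. SFPQ, a paraspeckle protein that takes part in splicing, had intensities of 1495, 1201 and 1444 on cisplatin 1 to 3, against 1602, 1701 and 1800.4 on control 1 to 3. The groups did not overlap, and the log2 fold was -0.30 (SE 0.098, 95% interval -0.52 to -0.085, limma adjusted p = 0.651). It was the closest of these genes to the threshold, with adjusted p values of 0.0642 to 1.00 over 16 alternatives, the lowest of them with the ACTB ratio as a covariate. DDX17, a DEAD-box RNA helicase, had on 1 probe set, where the groups did not overlap, a log2 fold of -0.24 (SE 0.078, 95% interval -0.41 to -0.063, limma adjusted p = 0.660). Its other tested probe set, of the _x_at type, had a log2 fold of 0.10 (interval -0.32 to 0.52) with overlapping groups. That probe set was dimmer, averaging 62.4 after cisplatin and 58.5 in control cells, against 1397 and 1649 on the first. PCBP2, which binds poly(C) stretches, had on 1 probe set a log2 fold of -0.18 (SE 0.076, 95% interval -0.35 to -0.0064, limma adjusted p = 0.936). On the other the groups overlapped and the log2 fold was -0.089 (interval -0.47 to 0.30). This other probe set was also dimmer, averaging 133 after cisplatin and 142 in control cells, against 1933 and 2187 on the first. CELF2, a splicing regulator, was dim, with 38.2 ± 9.24 after cisplatin and 24.4 ± 1.51 in control cells, and had a log2 fold of 0.45 (SE 0.19, 95% interval 0.029 to 0.87, limma adjusted p = 0.908).

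Another 8 probe sets carry a symbol of these families together with a further symbol and were not members. In limma 0 of them passed, and their log2 folds ran from -0.23 to 0.17. The probe set of SRSF2, paired in the probe table with the microRNA gene MIR636, had 1708, 1794 and 1744 on cisplatin 1 to 3, against 1978, 2055 and 2084 on control 1 to 3. The groups did not overlap, and the log2 fold was -0.22 (SE 0.066, 95% interval -0.37 to -0.071, limma adjusted p = 0.578). It was named after its values were seen.

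The cell type of the arrays was read from marker genes. Of 6 epithelial markers KRT18 averaged 5595 ± 352 after cisplatin and 5809.6 ± 488 in control cells and KRT8 1957 ± 469 after cisplatin and 2145 ± 359 in control cells. KRT19 averaged 143 ± 9.14 after cisplatin and 131 ± 10.8 in control cells, while EPCAM and CDH1 had means of at most 37.3 in either group. CLDN4, with means of 3.9 after cisplatin and -0.077 in control cells, lay under the filter on dim signal. Of 11 markers of blood, endothelial and stromal cells 9 were on the array with a single symbol. COL3A1, PTPRC and VWF lay under the filter on dim signal, 5 others had means between 37.8 and 102, and ACTA2, a smooth muscle actin, averaged 259 ± 38.7 after cisplatin and 184 ± 28.5 in control cells (log2 fold 0.47, limma adjusted p = 0.664). The ACTA2 arrays did not overlap between the groups, and its part in the results was not tested.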

How the data were processed

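Per the labels' protocols, total RNA was reverse-transcribed with an oligo-dT primer carrying a T7 promoter and labelled with biotin. The authors deposited 1 linear intensity per probe set and array. Since 1.37% of them are not above 0, some signal had been subtracted. The kind of subtraction, the software and the scaling are not given in the sources used. Precision is limited by the number of arrays.

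Negative intensities became 0, an offset of 11.8 (the 10th percentile of positive values) was added and log2 taken. The 47 control probe sets were left out, and 6559 of the other 8746 probe sets, at or above the 25th percentile of mean log2, were tested. Names came from the platform's probe table; all 56 member genes matched RefSeq (GRCh38.p14) by Entrez identifier and 0 symbols differed. The groups were compared with limma 3.58.1 in R 4.3.3 (lmFit, eBayes with an intensity trend, two-sided, Benjamini-Hochberg over all tested probe sets). The limma step was tested on simulated data. Figures used matplotlib 3.10.9 under Python 3.11.15.

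The members and lists were chosen with earlier results of these data known. Named members were the 8 with the lowest unadjusted p, the 2 lowest in each of the 7 families, the 2 largest positive and negative folds, those with the narrowest and widest interval, and further probe sets of these genes. Of the pathway genes outside the families, the 4 with the lowest p were named. Some hnRNP genes have near-identical copies elsewhere, so their probe sets can pick up related sequences. Alternatives covered scaling, offset, filter, variance prior, replicate block, left-out arrays, the ACTB ratio and the averaging of probe sets.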

Additional observations from a re-analysis of the deposited data

How the results depend on the processing

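In each of the 18 alternatives run for them, 0 members passed the threshold, with 0 to 7 at an unadjusted p under 0.05. The median log2 fold of the members was -0.081 with arrays centred on their median, where that of all tested probe sets was -0.019, and -0.076 to 0.027 over the 6 fits without 1 array. The pathway genes outside the families gave 0 calls in each of 16 alternatives. Against 19 of all tested probe sets, 8 passed without the intensity trend, 3 with an ordinary test per probe set, 47 with the ACTB ratio as a covariate, 5 with the replicate block and 6 to 18 without 1 array; the cause was not tested. The labels do not say that equal replicate numbers share an experiment, and arrays of equal number deviated from their group means with correlations of -0.56, -0.31 and -0.12, with 0 of 3 cisplatin arrays closest to their own number. With the block 0 members had an unadjusted p under 0.05.

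Of the values of the 22 named probe sets under alternatives, 337 kept their sign, 0 passed and 14 turned. The SRSF10 probe set with the widest interval had a log2 fold of -0.047 with arrays centred, -0.029 with quantile normalization, -0.32 with the ACTB ratio, -0.21 without control 1 and cisplatin 2, and -0.30 to 0.24 without 1 array. HNRNPC had 0.027 without control 1 and cisplatin 2 and -0.033 to 0.037 without 1 array. With the ACTB ratio PRPF8 had 0.025 and U2AF2 -0.029. Without 1 array U2AF2 ranged from -0.0037 to 0.18, U2AF1 from -0.18 to 0.030 and the other SRSF10 probe set from -0.22 to 0.0083. All 58 members were bright enough to be tested under each filter. CELF2 lay below the filter at the 50th percentile.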
